A study of Mus musculus with 37 samples.

Results

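The genes described here are 10 members of the MHC class I antigen presentation pathway, H2-D1, H2-K1, H2-T23, B2m, Tap1, Tap2, Tapbp, Psmb8, Psmb9 and Nlrc5, taken by symbol from the 21975 genes of the deposited tables, and all 10 were found. Controlled cortical impact, a focal mechanical injury of 1 hemisphere, was given at 2.5 mm depth to male mice aged 60 to 90 postnatal days, and astrocytes were taken from the hippocampus 4 months later with magnetic beads against ACSA-2, an astrocyte surface antigen. PTE+ mice were injured mice with repeated spontaneous seizures on EEG and video (post-traumatic epilepsy), PTE- mice were injured mice without post-traumatic epilepsy, and sham mice had the craniectomy and electrodes but no impact. The sample labels name the background as wild type CD31 and the study's methods name outbred CD1 mice, so the animals are not genetically identical. The contralateral side was represented by 20 libraries, 5 of them PTE+, 10 PTE- and 5 sham. The ipsilateral side, which is the injured or, in shams, the operated one, was represented by 17 (4 PTE+, 8 PTE-, 5 sham). Both hemispheres were present for 17 of the 20 mice, which are called here by their names in the labels, such as a9_10.

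Class I molecules show short peptides from a cell's own proteins at its surface, where CD8+ T cells and natural killer cells read them. A polymorphic heavy chain (H2-K1, H2-D1) or a nonclassical one (H2-T23, the mouse Qa-1 chain) pairs with beta-2-microglobulin, the product of B2m. Peptides are cut by the proteasome, whose catalytic subunits Psmb8 and Psmb9 replace constitutive subunits after interferon. The Tap1-Tap2 transporter carries peptides into the endoplasmic reticulum, and tapasin (Tapbp) holds the empty class I molecule beside it. Nlrc5 is a transactivator of class I genes that acts through the X and Y boxes of their promoters, and interferon-gamma raises most of these genes in astrocytes.

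The promoters of H2-K1 and B2m are shown first because they carry the control elements that the family is known for. The levels of these genes also went together across libraries (Spearman's rho 0.55 and 0.72 in the 2 hemispheres). This pair was not the closest, since B2m was at 0.60 and 0.76 with H2-T23 and at 0.87 and 0.66 with Psmb8. Whether shared elements and shared levels are related was not tested. RefSeq promoter windows (build GRCm38.p6, 250 bases before to 50 after a start) were found for 8 of the 10 members, all but Tap2 and Nlrc5. The H2-K1 stretch lies on chr17:34000348-34000527, minus strand, and the B2m stretch on chr2:122147507-122147685, plus strand, both just outside the annotated first exon. Capitals mark matches to the ISRE core AAANNGAAA, the X2 or CRE-like letters TGACG, the Y box CCAAT and the NF-kB motif, each on either strand, and the sequences run 5′ to 3′ along the gene's strand.
H2-K1: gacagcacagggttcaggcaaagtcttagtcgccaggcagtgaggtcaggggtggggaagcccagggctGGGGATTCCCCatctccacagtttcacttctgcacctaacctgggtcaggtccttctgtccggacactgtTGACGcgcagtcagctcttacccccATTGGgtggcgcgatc
B2m: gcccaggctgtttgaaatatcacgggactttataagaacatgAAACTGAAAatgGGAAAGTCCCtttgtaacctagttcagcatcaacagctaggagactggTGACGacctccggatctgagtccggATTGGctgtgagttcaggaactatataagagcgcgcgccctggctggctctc

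In 3 members the X2-like letters and the Y box, the latter on the opposite strand, stood in one arrangement with 20 bases between them. These 30 bases are shown to compare the genes, with the letters of both elements in capitals; they lie on chr17:35262993-35263022 (H2-D1, plus strand), chr17:34000359-34000388 (H2-K1, minus strand) and chr2:122147609-122147638 (B2m, plus strand). The H2-D1 site lies upstream of the RefSeq start but inside the gene as GENCODE annotates it.
H2-D1: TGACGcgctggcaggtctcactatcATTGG
H2-K1: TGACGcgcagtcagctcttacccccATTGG
B2m: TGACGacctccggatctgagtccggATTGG
This spacing, chosen after the positions were seen, was found in 3 of the 8 members and in 31 of all 32851 promoter windows (0.0944%). Taken singly, TGACG was found in 5 of 8 members against 20.8% of all windows, and CCAAT in 7 of 8 against 37.4%. In all these counts a member counts once if any of its windows matched, and H2-K1 had 2 windows. The shares are over windows, not genes. The windows of Tap1 and Psmb9 overlap, and the TGACG and the CCAAT counted for both genes are the same sites. The NF-kB motif was found in 3 of 8 (H2-D1, H2-K1 and B2m) against 8.46%, the ISRE core in 2 of 8 (H2-T23 and B2m) against 10.6%, and the GAS letters TTCNNNGAA in 1 of 8 (Psmb8) against 8.3%. The upstream 250 bases of H2-D1 and H2-K1 matched at 166 of 190 aligned bases (87.4%). A motif found or missed here is a match or mismatch of these letters only, and near-matches were not counted. The H2-K1 stretch shown above holds tttcacttc, which misses the opposite-strand form of the ISRE core by its last letter. Absence from these counts therefore does not mean that an element is absent, and binding was not measured.

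Except for B2m (chromosome 2) and Nlrc5 (chromosome 8), the members lie in the MHC on chromosome 17 of mm10. Psmb9 (chr17:34181987-34187764, minus strand), Tap1 (chr17:34187553-34197225), Psmb8 (chr17:34197721-34201454) and Tap2 (chr17:34203527-34216321) follow each other. Tap1 and Psmb9 share 212 exon bases on opposite strands, and 24.9% of the exon bases of Tapbp are shared with Gm19412 on the opposite strand, so reads there cannot be assigned by position alone. H2-D1, H2-K1 and the H2-Q and H2-T genes are close paralogs, and the counting program divides reads that match several of them by estimation. The reference genome carries the C57BL/6 alleles, so levels of the polymorphic H2 genes in outbred mice may depend on how well a mouse's allele matches it, which was not tested.

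The libraries held 25371887 to 55333329 counts contralaterally and 36925501 to 59846479 ipsilaterally, with 9020 to 15545 genes detected. All 8 astrocyte markers, among them Aqp4, Slc1a2 and Slc1a3, were above 3 counts in at least 1 library of every group. Their summed level was 19520 to 32579 CPM (counts scaled to the library's total counts) contralaterally and 9807 to 32207 ipsilaterally. The lowest sum, 9807 CPM, and the lowest number of detected genes, 9020, both belonged to the ipsilateral library of PTE- mouse a8_11, which stands apart. Microglial markers summed to between 0.0207 and 835 CPM, and endothelial markers to between 22 and 3388 CPM. T cell markers summed to at most 41.5 CPM, and Cd8a was above 3 counts in 4 of 20 contralateral and 2 of 17 ipsilateral libraries. The macrophage or dendritic, neuronal and oligodendrocyte marker sums reached 163, 1229 and 2138 CPM. In bulk libraries, fewer cells of a type and less RNA per cell cannot be told apart.

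Levels of different genes were compared as TPM, transcript levels corrected for gene length and scaled to the library. H2-D1 had a median of 535 TPM over the 20 contralateral libraries (202 to 1630), B2m 464 TPM (240 to 838) and H2-K1 248 TPM (130 to 838). These are the 2 classical heavy chains and the light chain they share, and the range of each overlapped those of the other 2. Below them lay Tapbp with a contralateral median of 120 TPM (43.6 to 172), Tap2 with 72.1 TPM (0.12 to 111), Psmb8 with 60.1 TPM (15.1 to 129) and H2-T23 with 40.9 TPM (7.46 to 158). Psmb9 (median 17.9 TPM, 0 to 62.0) and Tap1 (8.60 TPM, 0 to 62.3) were lower, and Nlrc5 had a median of 0 TPM with a highest value of 5.69. Each ipsilateral median differed from the contralateral one by less than the SD of the contralateral libraries, including those of Tap1 (16.7 TPM ipsilaterally, contralateral SD 15.1) and B2m (334 TPM, SD 165).

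**Figure D1:**
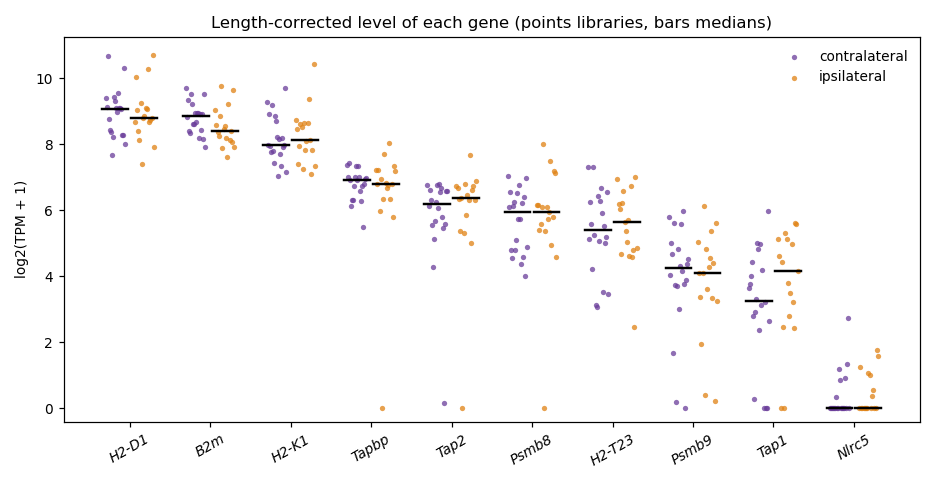
TPM of each gene on the log2(TPM + 1) scale, ordered by the contralateral median; points are single libraries (20 contralateral, 17 ipsilateral) and bars are medians. H2-D1, B2m and H2-K1 lie highest, Nlrc5 lies at 0 in most libraries, and single libraries of Tapbp, Tap2, Psmb8, Psmb9 and Tap1 fall to or near 0.

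The inducible proteasome subunits Psmb8 and Psmb9 were, by their medians, far below the constitutive ones that they replace. The ratio of Psmb8 to Psmb5 TPM had a median of 0.168 contralaterally (0.0402 to 0.441) and 0.177 ipsilaterally (0 to 0.858). The ratio of Psmb9 to Psmb6 was lower, with medians of 0.0340 and 0.0304. Both ratios were under 1 in all 37 libraries. Psmb10, the remaining inducible subunit, was closer to its counterpart Psmb7, with median ratios of 0.698 and 0.629. This ratio was above 1 in 7 of 20 contralateral and 1 of 17 ipsilateral libraries, and its lowest values were 0 and 0.000334.

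No member's difference between groups passed the test in either hemisphere. By edgeR's quasi-likelihood test with Benjamini-Hochberg adjustment over all genes, 0 of 10 members had an adjusted p under 0.05 in any of the 6 group comparisons. Over all genes tested, the called share was 0.0% in contralateral PTE- against sham and PTE+ against sham, 0.00683% in contralateral PTE+ against PTE-, and 0.0% in all 3 ipsilateral comparisons. DESeq2, which called 0.505%, 0.527% and 0.482% of genes in these contralateral comparisons and 0.407%, 0.555% and 0.667% in the ipsilateral ones (PTE- against sham, PTE+ against sham, PTE+ against PTE-), also called 0 of 10. At an unadjusted p under 0.05 only Nlrc5 passed, in the 3 contralateral comparisons. There 1.54%, 1.23% and 2.21% of all genes passed, and 1.58%, 1.66% and 1.75% did so ipsilaterally, where 0 of 10 members passed. With the study's own criteria applied to the edgeR fit (unadjusted p under 0.05, at least 1.2-fold, mean TPM above 5 in a group), 0 of 10 members passed, against 0.751%, 0.512% and 1.26% of genes contralaterally and 0.986%, 0.49% and 0.503% ipsilaterally.

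**Figure D2:**
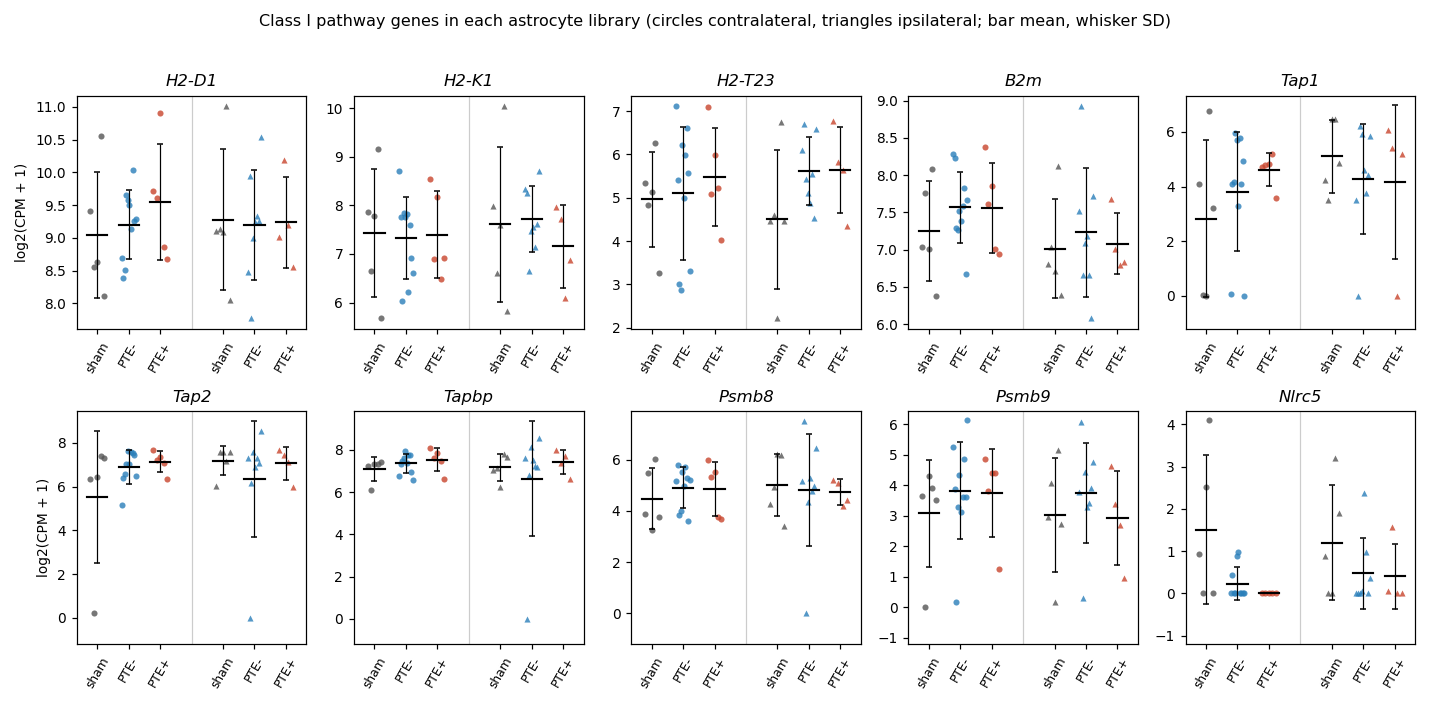
Level of each gene in every library on the log2(CPM + 1) scale, by group and hemisphere; points are libraries, bars are group means and whiskers are SDs. The groups overlap in every panel, and the contralateral PTE+ libraries of Nlrc5 all lie at 0.

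H2-D1, a classical heavy chain, ranged from 275.7 to 1502 CPM in contralateral sham libraries (median 395.6), from 335.2 to 1048 CPM in PTE- libraries (median 615) and from 407.1 to 1913 CPM in PTE+ libraries (median 777.2). The highest sham library was that of mouse a9_10 and the highest PTE+ library that of mouse a9_17, and the groups overlapped. The log2 fold change was 0.41 ± 0.43 (SE, edgeR, adjusted p = 1) for PTE+ against sham, and 0.03 ± 0.37 for PTE- against sham. Without sham mouse a9_10 the contralateral PTE+ against sham value was 0.96, with an unadjusted p of 0.0250 and an adjusted p of 1 by edgeR, past the study's criteria. Ipsilaterally H2-D1 ranged from 263.6 to 2062 CPM in sham (median 550.5), from 218.2 to 1487 in PTE- (median 609.2) and from 373.4 to 1168 in PTE+ (median 550.1). The ipsilateral log2 fold changes were between -0.38 and -0.10, with SEs of 0.45 to 0.54.

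H2-K1, the other classical heavy chain, ranged from 50.28 to 571.3 CPM in contralateral sham libraries (median 219.4), from 63.98 to 415.0 in PTE- (median 204.6) and from 88.19 to 371.4 in PTE+ (median 120.5). The largest H2-K1 value was 1052 CPM, in the ipsilateral library of sham mouse a9_10, against 55.61 to 251.7 CPM in the other 4 ipsilateral sham libraries. The 4 ipsilateral PTE+ libraries held 249.0, 210.0, 67.27 and 115.7 CPM and lay within the sham range. The ipsilateral PTE+ against sham log2 fold change was -1.13 ± 0.66 (SE, edgeR, unadjusted p = 0.103, adjusted p = 1), the lowest unadjusted p of the 9 members other than Nlrc5. It rested on single mice, being -0.14 without sham mouse a9_10 and -1.41 without sham mouse a9_11, where the unadjusted p was 0.0345 and the adjusted p 1 by edgeR. The H2-K1 to H2-D1 TPM ratio ran from 0.262 to 1.74 contralaterally and from 0.320 to 1.39 ipsilaterally, and it was above 1 in 2 libraries on each side.

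H2-T23 had the widest range of the heavy chains. In contralateral PTE- libraries it ran from 6.359 to 137.5 CPM (median 43.84), in PTE+ from 15.30 to 134.8 (median 36.72) and in sham from 8.595 to 75.89 (median 34.37). Ipsilaterally, 4 of 5 sham libraries held 3.676 to 23.47 CPM and that of a9_10 held 106.0 CPM, while PTE- libraries held 22.28 to 102.8 and PTE+ libraries 19.26 to 108.1 CPM. The ipsilateral PTE- against sham log2 fold change was 0.63 ± 0.66 (SE, edgeR, adjusted p = 1), and the exact permutation p, 2-sided, was 0.120. Without a9_10 it was 1.53, with an unadjusted p of 0.0372 and an adjusted p of 1 by edgeR.

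B2m, the light chain of every class I molecule, was the steadiest of the surface genes. It ran from 81.80 to 270.0 CPM in contralateral sham (median 130.3), from 101.0 to 311.2 in PTE- (median 186) and from 122.3 to 331.1 in PTE+ (median 195.3). The highest-to-lowest ratio over the contralateral libraries was 4.05, against 6.94 for H2-D1, 11.4 for H2-K1 and 21.6 for H2-T23. The log2 fold changes were 0.37 ± 0.33 for contralateral PTE- against sham and 0.23 ± 0.37 for PTE+ against sham (SE, edgeR, adjusted p = 1). Ipsilaterally the highest library was that of PTE- mouse a8_11 at 485.6 CPM, the library with the lowest astrocyte marker sum, and the remaining PTE- libraries held 66.65 to 210.6 CPM.

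**Figure D3:**
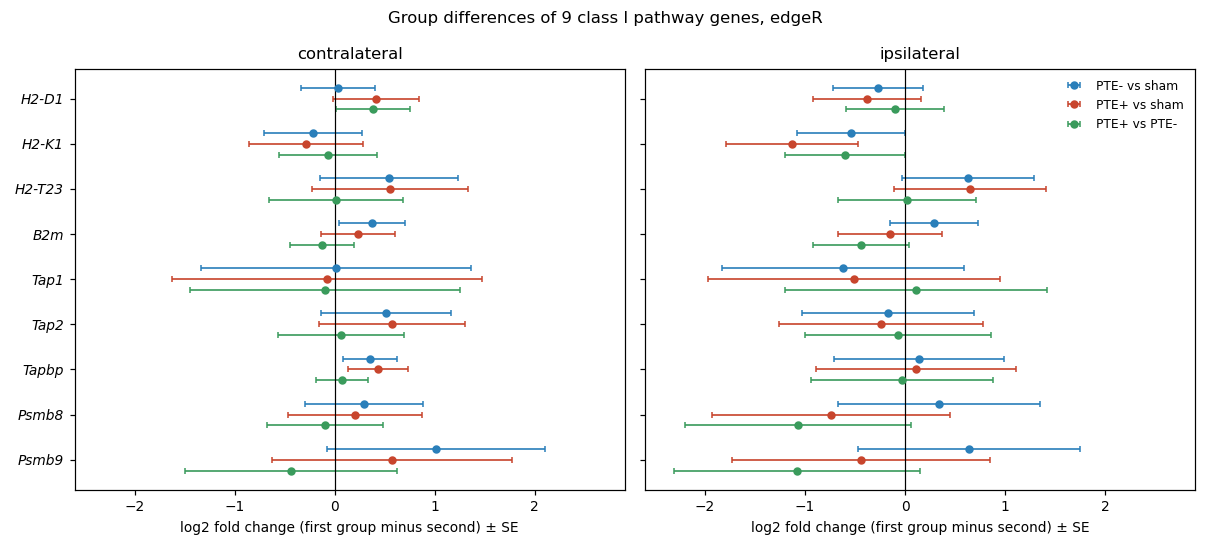
Log2 fold changes (edgeR, first group minus second) of the 9 members other than Nlrc5 in each hemisphere; points are estimates and whiskers are SEs. The estimates lie between -1.13 and 1.01, and the SEs of Tap1 and Psmb9 reach 1.55 and 1.29.

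The peptide transporter genes had libraries at or near 0 counts beside libraries well above 50 CPM. Tap2 was at 0.1588 CPM in the contralateral library of sham mouse a8_16, while the other 4 sham libraries held 80.55 to 167.8 CPM. It was at 35.20 to 199.2 CPM in PTE- and 81.59 to 202.2 CPM in PTE+ libraries. Its log2 fold changes were between 0.06 and 0.57 contralaterally (SEs of 0.63 to 0.73) and between -0.24 and -0.07 ipsilaterally (SEs of 0.86 to 1.02). Tap1 was at or under 0.05422 CPM in 4 of the 20 contralateral libraries, 2 of sham and 2 of PTE- mice, and reached 108.8 CPM in sham mouse a9_10. Its contralateral PTE- against sham log2 fold change of 0.01 ± 1.35 (SE, edgeR, adjusted p = 1) became 2.10 without that mouse. Tapbp ran from 67.07 to 173.5 CPM in contralateral sham libraries (median 158.1), from 95.58 to 248.0 in PTE- (median 172.5) and from 98.26 to 272.1 in PTE+ (median 195.6), and the groups overlapped. It had the smallest SEs of the 10 members contralaterally, 0.26 to 0.30, with log2 fold changes of 0.35 for PTE- against sham, 0.43 for PTE+ against sham and 0.07 for PTE+ against PTE- (adjusted p = 1 each, edgeR). In the ipsilateral library of PTE- mouse a8_11, Tap1, Tap2 and Tapbp were all at 0.0 CPM, while Psmb8 and Psmb9 had their highest ipsilateral values there, at 183.0 and 66.57 CPM.

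Psmb8, which gives the proteasome a chymotrypsin-like inducible site, ran from 8.523 to 64.69 CPM in contralateral sham libraries (median 13.54), from 11.22 to 53.67 in PTE- (median 35.68) and from 11.76 to 62.32 in PTE+ (median 38.73). The sham median was below the other 2, but 2 of 5 sham libraries held 43.44 and 64.69 CPM and the groups overlapped. The log2 fold changes were 0.29 ± 0.59 and 0.20 ± 0.67 against sham for PTE- and PTE+ (SE, edgeR, adjusted p = 1). Psmb9 ran from 0.0 to 18.60 CPM in contralateral sham, from 0.128 to 68.70 in PTE- and from 1.396 to 27.70 in PTE+ libraries. Its log2 fold change for contralateral PTE- against sham was 1.01 ± 1.09 (SE, edgeR, adjusted p = 1), the highest of the 60 group comparisons of members, and it was -0.19 under limma voom with quality weights. In ipsilateral PTE+ against PTE- libraries the log2 fold changes were -1.07 ± 1.13 for Psmb8 and -1.08 ± 1.23 for Psmb9 (SE, edgeR, adjusted p = 1).

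Nlrc5, the class I transactivator, was detected in few libraries. In the contralateral sham libraries it held 0.9105, 0.0, 16.06, 0.0 and 4.744 CPM, with the highest value in mouse a9_10. It was above 3 counts in 3 of 5 sham and 3 of 10 PTE- libraries, the latter at 0.3520 to 0.9726 CPM, and at 0 counts in all 5 PTE+ libraries. Against the limit that 3 counts per library set in PTE+, the contralateral sham mean was at least 56.8-fold higher, or at least 18.5-fold without a9_10, and the PTE- mean at least 2.85-fold higher, or 1.75-fold without mouse a9_13. These bounds cover counting error in PTE+ only, not the spread between mice. The edgeR test gave unadjusted p values of 0.00520 for PTE+ against sham, 0.0265 for PTE+ against PTE- and 0.0499 for PTE- against sham, each with an adjusted p of 1. Exact permutation tests of the mean log2(CPM + 1), 2-sided, gave 0.167, 0.359 and 0.0433 for these comparisons in the same order, and 3.4% of all genes were under 0.05 by that test in PTE- against sham. Ipsilaterally Nlrc5 was detected in every group, at up to 8.284 CPM in sham, 4.210 in PTE- and 1.952 in PTE+ libraries, and the smallest edgeR p there was 0.405.

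Over all members, 60 exact permutation tests within hemispheres gave 1 p under 0.05, that of Nlrc5, and in 0 of 60 were the groups without overlap. Of all genes, 3.4%, 3.54% and 4.66% were under 0.05 by this test contralaterally, and 3.11%, 3.52% and 2.15% ipsilaterally. These shares are for PTE- against sham, PTE+ against sham and PTE+ against PTE-, in this order. The share of all genes whose groups did not overlap was 0.0341%, 0.587% and 0.0751% contralaterally and 0.0671%, 1.2% and 0.235% ipsilaterally, for PTE- against sham, PTE+ against sham and PTE+ against PTE-. The median log2 fold change of the 10 members was 0.32 in contralateral PTE- against sham, against 0.07 over all genes. The median was 0.32 against 0.03 in contralateral PTE+ against sham and -0.08 against -0.05 in PTE+ against PTE-. In these 3 comparisons 8, 7 and 4 members were above 0, against 8101, 7692 and 6838 of 14642 genes. Ipsilaterally the medians were -0.01, -0.41 and -0.27, against 0.02, 0.00 and -0.01 over all genes. There 5, 2 and 2 members were above 0, against 7670, 7467 and 7343 of 14903 genes. The 2 comparisons with sham share their sham libraries, and no member passed the test in them.

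Between the hemispheres of the same mice, 0 of 10 members had an adjusted p under 0.05 by edgeR in sham, PTE- or PTE+ mice, where 0.0% of all genes did. This fit did not use the pairing of hemispheres. At an unadjusted p under 0.05, 1 member was below the threshold in it, Nlrc5 in PTE+ (log2 fold change 7.41, p = 0.0345, edgeR, adjusted p = 1), against 2.05%, 4.56% and 2.93% of genes in sham, PTE- and PTE+. With the mouse as replicate block, 0 members had an unadjusted p under 0.05 and the Nlrc5 value was 4.41 ± 3.08 (SE), and without PTE+ mouse a9_17 the unblocked value was 2.42. DESeq2 called 0 members and 0.772%, 0.933% and 1.51% of genes. Tests of whether the hemisphere difference itself differed between groups gave 0 of 10 members called and 0.0% of genes for PTE- against sham and for PTE+ against PTE-, and 0 members with an unadjusted p under 0.05 against 3.13% and 2.94% of genes. In these 2 contrasts DESeq2 called 0 members and 0.944% and 1.22% of genes.

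H2-K1, B2m and Psmb9 were lower ipsilaterally in 4 of 4 PTE+ mice. H2-K1 went from 371.4 to 249.0, from 285.4 to 210.0, from 88.19 to 67.27 and from 120.5 to 115.7 CPM, and the log2 fold change was -0.45 ± 0.68 (SE, edgeR, adjusted p = 1). A lower ipsilateral value in all 4 PTE+ mice was seen for 6.88% of all genes. B2m was lower ipsilaterally in 3 of 5 sham and 6 of 8 PTE- mice as well. Tap1 was higher ipsilaterally in 4 of 5 sham, 6 of 8 PTE- and 3 of 4 PTE+ mice, with log2 fold changes of 0.90 ± 1.48, 0.04 ± 1.16 and 0.52 ± 1.65 (SE, edgeR without the mouse as block, adjusted p = 1 each). With the mouse as replicate block these were 3.02 ± 2.57, 0.18 ± 1.67 and 0.18 ± 2.42 (adjusted p = 1 each). Apart from Nlrc5, the unblocked log2 fold changes of the members ran from -0.17 (B2m) to 0.90 (Tap1) in sham, from -0.30 (B2m) to 0.50 (Psmb8) in PTE- and from -0.80 (Psmb9) to 0.52 (Tap1) in PTE+ mice.

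Each member was compared between the hemispheres of the same mouse. After subtraction of group means, H2-K1 in the 2 hemispheres of 17 mice had Pearson's r = 0.77 (permutation p = 0.00341, adjusted over all genes 0.309) and Spearman's rho = 0.70 (permutation p = 0.00700, adjusted 0.469). The Pearson value was higher than that of 99.5% of the 14387 genes tested in both hemispheres, and it stayed at 0.70 without the 2 mice farthest from the median, 0.78 without a8_11 and 0.67 without a9_10. B2m had r = 0.51 (permutation p = 0.0399, adjusted 0.666) and rho = 0.55 (permutation p = 0.0293, adjusted 0.603), with r = 0.31 without the 2 farthest mice. For H2-D1, r was 0.50 (permutation p = 0.0615, adjusted 0.711) and rho 0.35 (permutation p = 0.2, adjusted 0.828), and r was -0.02 without a9_10 and a9_17, so that it rested on these mice; without a8_11 it was 0.63. The remaining 7 members had r between 0.09 and 0.44, of which Tap2 and Psmb8 went from 0.09 and 0.33 to 0.69 and 0.65 without their 2 farthest mice. All 10 values were positive, as were those of 8896 of the 14387 genes, with a median of 0.33 against 0.09 over all genes. However, 0 of 10 passed at an adjusted permutation p under 0.05, against 0.104% of genes. An unadjusted permutation p under 0.05 was found for 2 of 10, against 7.27%.

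**Figure D4:**
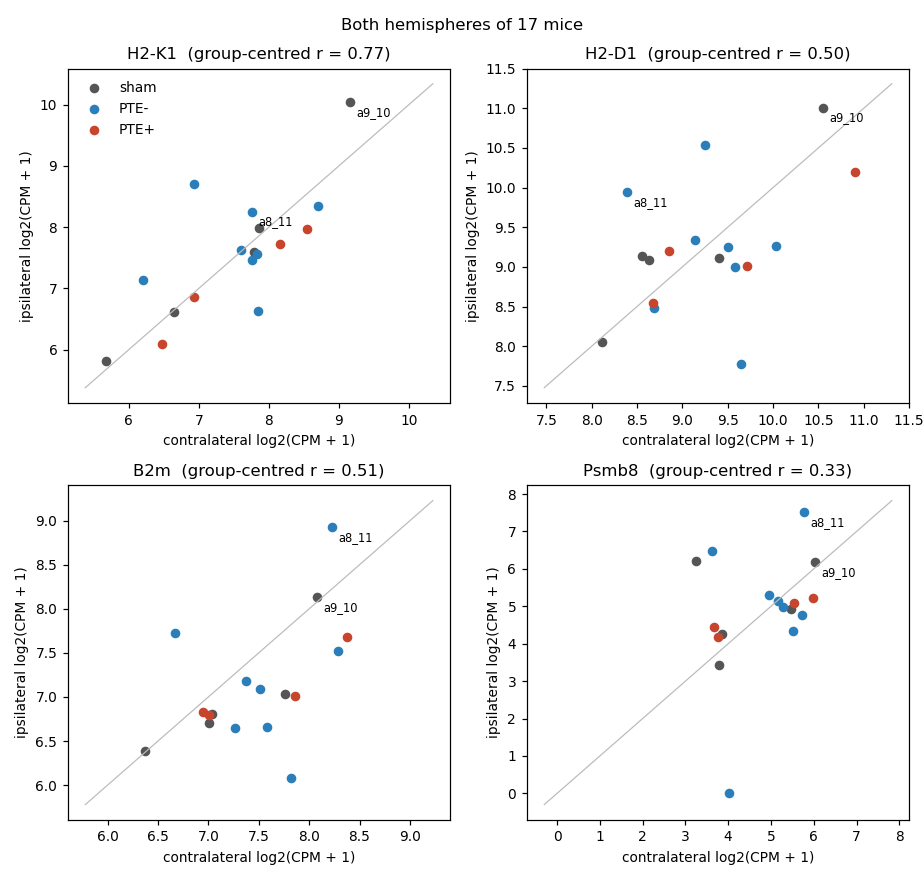
Contralateral (x) against ipsilateral (y) level of 4 members on the log2(CPM + 1) scale; each point is a mouse (17 mice), the grey line marks equal levels, and r is Pearson's correlation after subtraction of group means. H2-K1 follows the line most closely, sham mouse a9_10 lies at its upper end, and for H2-D1 the upper end is set by 2 mice.

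Sham mouse a9_10 had the highest contralateral level of 4 of the 10 members and the highest ipsilateral level of 4. Its H2-D1 was 1502 and 2062 CPM, its H2-K1 571.3 and 1052 CPM and its Nlrc5 16.06 and 8.284 CPM. The class II gene sum in this mouse was 277.8 CPM contralaterally, the highest of the sham libraries, and 283.3 ipsilaterally. Its microglial marker sums were 470.4 and 761.0 CPM and its T cell marker sums 14.39 and 6.644 CPM, each the highest of the sham group. The same held for its oligodendrocyte marker sums of 1548 and 2138 CPM and its ipsilateral neuronal sum of 544.9 CPM, and its ipsilateral astrocyte marker sum of 20326 CPM was the lowest of the sham group. Its endothelial marker sums of 929.6 and 505.6 CPM were below the 1052 and 658.5 CPM of sham mouse a8_15. Its macrophage or dendritic sums of 11.97 and 20.38 CPM lay within the range of the other shams. Its contralateral neuronal sum of 274.6 CPM was below the 827.4 CPM of sham mouse a9_11. The part of these cell types in the levels of a9_10 was not tested. Contralaterally PTE+ mouse a8_10 had a mean rank of 4.0 over the members against 4.1 for a9_10, was among the 3 highest libraries for 6 members against 5, and had the highest endothelial marker sum of all libraries, 3388 CPM, whose part was not tested. Ipsilaterally PTE- mouse a9_16 ranked next to a9_10, among the 3 highest libraries for 7 of 10 members, with a class II sum of 2386 CPM, against 34.31 CPM in its contralateral library.

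Among the 45 pairs, Spearman's rho on group-centred values was positive for 41 contralaterally, with a median of 0.30 against 0.03 over all gene pairs, and for 39 ipsilaterally, with a median of 0.23 against 0.08. B2m and Psmb8 were the closest contralateral pair with rho = 0.87 over 20 libraries (0.66 over 17 ipsilaterally), and B2m went with H2-K1 at 0.55 and 0.72 and with H2-T23 at 0.60 and 0.76. Tap2 and Tapbp formed the closest ipsilateral pair, at 0.82 (0.75 contralaterally), and Tap1 went with Tap2 at 0.57 and 0.26. Across these pairs the values varied: B2m with Tap2 was at -0.14 and -0.01, while H2-D1 was at 0.44 and 0.04 with Tap2 and at 0.49 and 0.12 with Tapbp. Tap1 and Psmb9, whose 5′ ends overlap on opposite strands, had rho of -0.25 and -0.09. These values are a description of libraries that share depth and cell makeup, without a test.

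**Figure D5:**
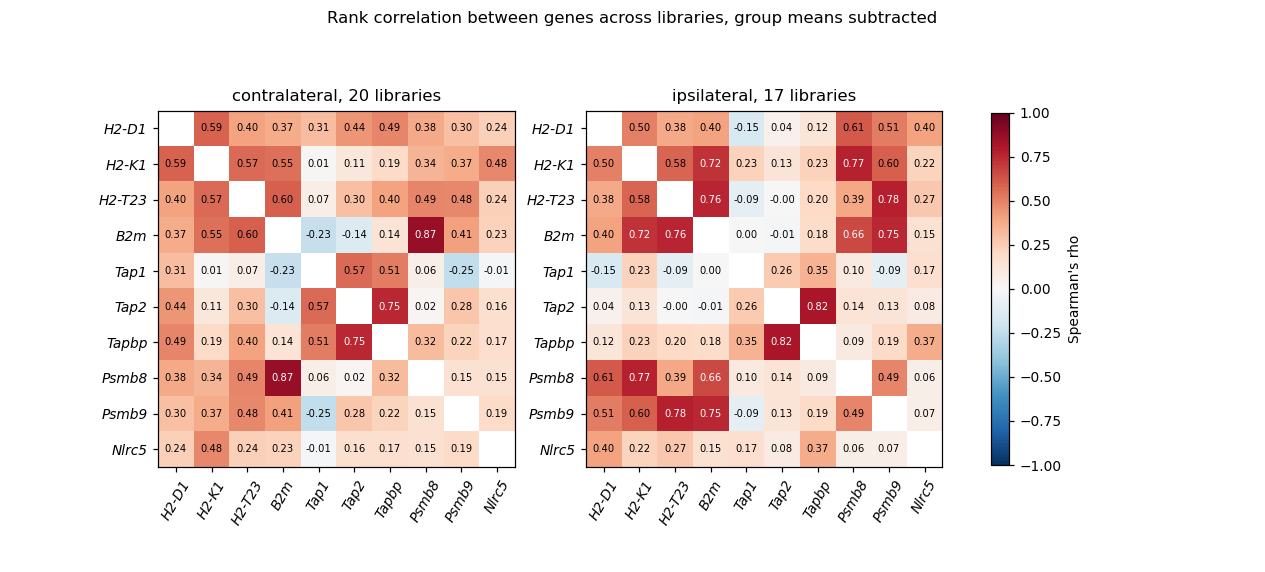
Spearman's rho between members across libraries after subtraction of group means, for 20 contralateral and 17 ipsilateral libraries. B2m is warm with Psmb8, H2-K1 and H2-T23 in both panels, and so is Tap2 with Tapbp, while B2m with Tap1 is at -0.23 and 0.00. Psmb9 with H2-T23 and with B2m is at 0.78 and 0.75 ipsilaterally, against 0.48 and 0.41 contralaterally.

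The summed microglial markers had a Spearman's rho of 0.68 contralaterally and 0.49 ipsilaterally with B2m, 0.51 and 0.67 with Psmb8, 0.57 and 0.39 with H2-K1, and 0.54 and 0.37 with Psmb9. With Tap2 it was -0.05 and 0.00, with Tap1 0.06 and 0.10, and with Tapbp 0.14 and 0.05. Endothelial markers had rho between 0.46 and 0.64 with the heavy chains, B2m, Tapbp, Psmb8 and Psmb9 contralaterally. With Tap1, Tap2 and Nlrc5 their contralateral rho was 0.38, 0.28 and -0.10. Ipsilaterally it was between -0.33 and 0.60 with the 10 members. Astrocyte markers had rho between -0.54 and 0.21 with the members contralaterally and between -0.59 and 0.09 ipsilaterally, with the lowest ipsilateral values for H2-T23 (-0.59), Psmb9 (-0.44) and B2m (-0.42). Whether these cells contribute to the members' levels was not tested.

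Of 35 other genes of the pathway (further class I genes, chaperones, the proteasome activator, interferon receptors with their signalling, and regulators of class I promoters), 34 were in the tables and were tested. Of these, 0 had an adjusted p under 0.05 by edgeR or DESeq2 in any of the 11 comparisons. At an unadjusted p under 0.05, 0 higher and 1 lower passed in contralateral PTE+ against PTE- (0.874% and 1.33% of all genes): Pdia3 (ERp57, the disulfide isomerase of the loading complex), with a log2 fold change of -0.42 ± 0.18 (SE, edgeR, p = 0.0311, adjusted p = 1). In PTE- mice, ipsilateral against contralateral, 2 were higher and 1 lower (2.43% and 2.12% of all genes): the kinase Jak1 (0.71 ± 0.25, edgeR, adjusted p = 0.549), the interferon-gamma receptor chain Ifngr1 (0.83 ± 0.40, adjusted p = 1) and the X box factor subunit Rfxank (-1.10 ± 0.53, adjusted p = 1). The unadjusted edgeR p of 3 of these 4 genes rose above 0.05 when 1 library or mouse was left out. It was 0.0844 for Pdia3 without the contralateral library of a9_19. Without both libraries of a mouse it was 0.106 for Rfxank (a9_16) and 0.13 for Ifngr1 (a8_9). In the other 9 comparisons 0 of 34 passed at that level in either direction. Of all genes, 0.813% were higher and 0.731% lower there in contralateral PTE- against sham, and 0.54% and 0.69% in PTE+ against sham. Ipsilaterally these shares were 0.812% and 0.772% for PTE- against sham, 0.409% and 1.25% for PTE+ against sham, and 0.315% and 1.44% for PTE+ against PTE-. Ipsilateral against contralateral they were 1.13% and 0.922% in sham and 1.17% and 1.76% in PTE+ mice, and for the differences between groups 1.53% and 1.6% (PTE- against sham) and 1.2% and 1.74% (PTE+ against PTE-). Irf1, a transcription factor of the interferon response, had a contralateral median of 45.31 CPM. Ifnb1 and Ifna4 were at 0 counts in all 37 libraries and Ifng was above 3 counts in 1 library of each hemisphere.

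By the Spearman correlation with the mean log2(CPM + 1) of the 10 members over the 20 contralateral libraries, the 5 genes outside the lists with the most similar pattern were Mmrn2 (0.78), Stn1 (0.78), Alas1 (0.77), Lcp1 (0.74) and Slc26a2 (0.73). Over the 17 ipsilateral libraries their rho was 0.40, 0.56, -0.12, 0.25 and 0.29.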

How the data were processed

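Hippocampal astrocytes of both hemispheres were profiled with SMART-Seq V4 libraries, which do not mark strand, as paired-end reads. The authors trimmed reads with Trim Galore 0.6.4 and aligned and counted them on mm10 with RSEM 1.2.28 and Bowtie2 2.4.1, as the submitters' processing notes and the study's methods state. Their annotation release is not given in the sources used here. The deposited tables hold RSEM expected counts per gene as whole numbers, and the deposited TPM values are the authors' length-corrected levels. RSEM divides reads that match several genes, so values of near-identical class I genes are uncertain.

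Counts were tested over all genes with edgeR 4.0.16 in R 4.3.3 (filterByExpr, TMM, glmQLFit and glmQLFTest, Benjamini-Hochberg over all genes tested), per hemisphere with its 3 groups in 1 fit, and over the 17 mice with both hemispheres for hemisphere contrasts. This tested 14642 contralateral, 14903 ipsilateral and 15731 joint genes, with a common biological coefficient of variation of 1.32, 1.40 and 1.39. CPM was scaled to each library's total counts over all genes, without the TMM factors that the edgeR fold changes use. The exact permutation test compared mean log2(CPM + 1), 2-sided, and the smallest p it could give was 0.000333 to 0.00794. Same-mouse correlations used 100000 permutations of mice within groups (smallest p 1e-05). Counting limits were set at 3 counts and cover counting error only. Alternatives were DESeq2 1.42.0, limma 3.58.1, RLE size factors, no filter, the prefix of the mouse name as covariate, the compared groups alone, each library left out, and the mouse as replicate block. In the hemisphere contrasts, both libraries of each mouse were left out together. Scripts were tested on simulated data.

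Same-named libraries of the 2 hemispheres come from the same animal by their labels, which is the pairing; the median same-mouse correlation over 14387 genes was 0.09. No libraries of a group were identical. All 10 members were tested in every comparison; between hemispheres some are given only by the range of their fold changes. Of the other pathway genes, up to 4 with the smallest unadjusted p under 0.05 were named where none passed adjustment, and of genes outside the lists the 5 most correlated with the members' mean. Members and lists were chosen with earlier results of these data known. Promoter sequences are from RefSeq (GRCm38.p6), gene positions from GENCODE on the same build, and Python 3.11.15 with scipy 1.17.1 was used. H2-K2 and Trac, from the lists, were not analysed here.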

Additional observations from a re-analysis of the deposited data

Results flagged for a closer look

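Of 59 sets of 4 to 10 libraries (a member in a group and hemisphere), 14 held a library whose gap to the nearest other, relative to the whole range, passed Dixon's 95% critical value on the log2(CPM + 1) scale; chance flags about 1 in 20 sets. On this scale 12 of the 14 were low libraries, but the side depends on the scale: on the CPM scale, added after seeing the data, there were 12, of which 11 were high and 1 low, and 3 were found on both scales (Tapbp in contralateral sham mouse a8_16 and Nlrc5 in ipsilateral mice a9_17 and a9_13). On the CPM scale sham mouse a9_10 was high for ipsilateral H2-D1, H2-K1, H2-T23 and B2m, at 2062, 1052, 106 and 279.1 CPM, and for contralateral Tap1 at 108.8 CPM. The values that follow are in CPM, for libraries found on the log scale. Tap1 was at 0.0 CPM in ipsilateral PTE+ mouse a9_18, with the next library at 35.7 CPM, and at 0.0 CPM in ipsilateral PTE- mouse a8_11, with the next at 10.37 CPM. Tap2 was at 35.2 CPM in contralateral PTE- mouse a8_9, 0.1588 CPM in contralateral sham mouse a8_16, 0.0 CPM in ipsilateral PTE- mouse a8_11 and 63.74 CPM in ipsilateral sham mouse a8_15. Tapbp was at 67.07 CPM in contralateral sham mouse a8_16 and 0.0 CPM in ipsilateral PTE- mouse a8_11. Psmb8 was at 0.0 CPM in ipsilateral PTE- mouse a8_14. Psmb9 was at 1.396 CPM in contralateral PTE+ mouse a9_19, 0.128 CPM in contralateral PTE- mouse a8_13 and 0.0 CPM in contralateral sham mouse a8_16. Nlrc5 was high in ipsilateral PTE+ mouse a9_17 at 1.952 CPM and in ipsilateral PTE- mouse a9_13 at 4.21 CPM. Mouse a8_11 and mouse a8_16 each gave 3 of the 14 on the log scale, in the ipsilateral and contralateral library.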

How the results depend on the processing

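No member had an adjusted p under 0.05 under any setting run, and the lowest adjusted p was 0.597 (Nlrc5, DESeq2). With the mouse as replicate block, which uses the pairing of hemispheres, 0 members were called at an adjusted p under 0.05 in the 5 hemisphere contrasts, as without it; the unadjusted p of Nlrc5 in PTE+ mice no longer passed 0.05, and the median member log2 fold change in sham mice was 0.23 in place of 0.31. Leaving out a library moved the members past the study's criteria from 0 to between 0 and 1 in contralateral PTE+ against sham (1 without sham mouse a9_10), in ipsilateral PTE- against sham (1 without a9_10) and in ipsilateral PTE+ against sham (1 without sham mouse a9_11). The 1 exact test under 0.05 became 0 with a pseudocount of 0.1 and between 0 and 2 when a mouse was left out, both chosen after seeing the data. The same-mouse correlation turned negative for H2-D1 (-0.02) and Nlrc5 (-0.17) without the 2 farthest mice, and, in settings chosen after seeing the data, for Tap2 without a8_11 (-0.01, against 0.09 without a9_10) and Nlrc5 without a9_10 (-0.04, against 0.45 without a8_11). Of 1778 member fold changes under other settings, none of them called, 204 changed sign and 36 moved by more than 1 SE; the cause was not tested. The spread between mice limits these tests, since the SEs of the 10 members ran from 0.26 to 3.35 on the log2 scale, and Nlrc5 was above 3 counts in 6 of 20 and 7 of 17 libraries.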
